A study of Mus musculus with 24 samples.

Results

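The T cell genes followed here are the 8 genes Cd3e, Cd3g, Cd3d, Cd4, Cd8a, Cd8b1, Cd2 and Lck, taken by gene symbol from the 16730 genes of the deposited count table. All 8 were found, and all 8 had enough counts to be tested among the 15020 genes that passed the filter on low counts. RNA was sequenced by QuantSeq, which reads the 3′ ends of polyadenylated transcripts, from the epididymal fat pads (eWAT) of 24 male mice. There were 4 groups of 6 mice, since each genotype, Lama4 fl/fl or Lama4 AKO, was fed either chow or a high-fat diet (HFD). All mice carried Lama4 alleles with loxP sites around exon 3, and the Lama4 AKO mice also carried an adiponectin-Cre transgene, which acts in adipocytes, so immune cells of either genotype kept the gene. The Lama4 fl/fl mice were littermates without Cre. Chow was diet 5015, the HFD drew 45% of its energy from fat, each diet was fed for 20 weeks, and the study's methods give an age of 24 to 26 weeks at collection. Figure legends of the study place chow feeding from weaning to 24 weeks of age and HFD feeding up to 26 weeks. Diet and age at collection therefore cannot be told apart in any comparison of the diets. T cells were not sorted, so every value is a share of the RNA of whole fat tissue, in which fewer T cells and less RNA per T cell cannot be told apart.

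A T cell recognises antigen through a receptor whose variable chains cannot signal by themselves. The CD3 gamma, delta and epsilon chains carry the signal into the cell, CD4 or CD8 binds the MHC molecule that presents the antigen, and the kinase Lck, held by CD4 or CD8, phosphorylates the CD3 chains. CD2 is an adhesion receptor shared by T cells and natural killer cells. Visceral fat holds resident T cells of the CD4 and CD8 classes, and the fat pad can also hold lymphoid clusters with B cells.

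The 3 CD3 genes lie side by side on chromosome 9 of the GRCm38 mouse reference. Cd3g (ENSMUSG00000002033) spans chr9:44969572-44980431 on the reverse strand, and Cd3d (ENSMUSG00000032094) spans chr9:44981786-44987339 on the forward strand, starting 1354 bases from the start of Cd3g. Cd3e (ENSMUSG00000032093) spans chr9:44998740-45009627 on the reverse strand. The coreceptor genes are Cd4 (ENSMUSG00000023274) at chr6:124864692-124888221, reverse strand, Cd8a (ENSMUSG00000053977) at chr6:71373427-71379173, forward strand, and Cd8b1 (ENSMUSG00000053044) at chr6:71322788-71337494, forward strand, which ends 35932 bases before Cd8a. Cd2 (ENSMUSG00000027863) lies at chr3:101275899-101287939 on the reverse strand and Lck (ENSMUSG00000000409) at chr4:129548344-129573641 on the reverse strand. In release M21 of the GENCODE annotation, Cd3e overlaps 2 genes, Gm48719 on the other strand and Gm48720 of an unsettled type, and Lck overlaps 1 microRNA gene, none of which is a row of the count table, and the other 6 genes overlap no annotated gene.

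Because the 8 genes rose and fell together from mouse to mouse, as described below, the sequences before their transcription starts are shown. RefSeq promoter entries for GRCm38.p6 matched 5 of the 8 genes, with 2 starts for Lck, so that 6 windows of 250 bases before the start could be searched. Capitals mark matches on either strand to 5 short motifs bound by factors active in T cells, and no matches overlapped. The motif of the ETS factors was searched for as AGGAAG. For the E-box, which basic helix-loop-helix proteins bind, the letters were CAGNTG. Factors of the GATA family, among them GATA3 of T cells, were represented by AGATAA. TCF and LEF factors were represented by the letters CTTTGA on the same terms. RUNX factors, finally, were represented by the letters TGTGGT.
Cd3g, chr9:44980432-44980681, reverse strand: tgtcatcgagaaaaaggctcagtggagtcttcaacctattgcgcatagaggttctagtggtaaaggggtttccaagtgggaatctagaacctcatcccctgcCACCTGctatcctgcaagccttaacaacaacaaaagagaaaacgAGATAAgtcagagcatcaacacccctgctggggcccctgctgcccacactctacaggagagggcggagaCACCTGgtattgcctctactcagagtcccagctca
Cd3d, chr9:44981536-44981785, forward strand: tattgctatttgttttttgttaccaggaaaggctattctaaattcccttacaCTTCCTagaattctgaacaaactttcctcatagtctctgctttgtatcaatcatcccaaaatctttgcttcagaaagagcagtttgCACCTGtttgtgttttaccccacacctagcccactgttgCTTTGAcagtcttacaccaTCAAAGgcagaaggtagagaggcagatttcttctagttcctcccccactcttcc
Cd3e, chr9:45009612-45009861, reverse strand: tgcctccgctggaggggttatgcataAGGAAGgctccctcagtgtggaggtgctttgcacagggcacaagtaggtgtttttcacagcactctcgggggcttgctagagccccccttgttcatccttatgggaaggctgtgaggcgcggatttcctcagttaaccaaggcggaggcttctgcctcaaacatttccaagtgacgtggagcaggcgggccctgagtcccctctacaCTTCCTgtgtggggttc
Lck, upstream start, chr4:129573642-129573891, reverse strand: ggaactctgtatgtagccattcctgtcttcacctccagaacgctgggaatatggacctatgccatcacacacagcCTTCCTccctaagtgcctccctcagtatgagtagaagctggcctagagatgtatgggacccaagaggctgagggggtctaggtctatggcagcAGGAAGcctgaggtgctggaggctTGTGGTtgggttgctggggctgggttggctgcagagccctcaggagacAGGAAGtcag

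The ETS letters were in 4 of the 6 windows, against 29.5% of the 32851 mouse promoter windows of this length. The E-box letters were in 3 of 6, against 44.8% of all windows. The RUNX letters were in 1 of 6, just upstream of Lck, against 14.0%, the GATA letters in 1 of 6, at Cd3g, against 9.99%, and the TCF and LEF letters in 1 of 6, at Cd3d, against 13.8%. The Cd8a window at chr6:71373177-71373426 held none of the 5 motifs. TATAAA, the TATA box, was in none of the 6 windows, against 12.4% of all windows. These are matches of letters in short windows, with no measurement of binding.

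Library totals ran from 5579590 to 18764516 counts. The summed level of 6 adipocyte genes ran from 8026 to 47010 CPM, the counts of a gene scaled to a common library size, so every library held adipocyte RNA, and it was lowest in HFD-fed Lama4 AKO libraries, with a median of 9816 CPM against 28080 CPM in chow-fed Lama4 AKO libraries. Ptprc (CD45, carried by all leukocytes) had group medians of 198 to 251 CPM and did not pass the test in any comparison. Lama4 ran from 41.8 to 194 CPM in chow-fed Lama4 fl/fl mice, 63.0 to 133 CPM in chow-fed Lama4 AKO mice, 32.5 to 134 CPM in HFD-fed Lama4 fl/fl mice and 37.0 to 91.4 CPM in HFD-fed Lama4 AKO mice. Lama4 AKO and Lama4 fl/fl overlapped on both diets, with a log2 fold change of 0.11 on chow (SE 0.34, adjusted p = 0.98 by edgeR) and of -0.69 on HFD (SE 0.35, adjusted p = 0.347 by edgeR). The 3′ reads lie outside the deleted exon 3, and other cells of the fat pad keep the gene, so Lama4 counts do not check the genotype labels.

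None of the 8 T cell genes passed the test for diet or for genotype when all 24 mice were compared. Their levels instead differed many-fold between mice of the same group, and the 8 genes did so together. The sum over the 8 genes ran from 9.34 CPM in HFD-fed Lama4 fl/fl replicate 4 to 144.5 CPM in chow-fed Lama4 AKO replicate 6, a ratio of 15.5. Single libraries therefore set the size, and for several comparisons the direction, of the fold changes below.

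**Figure D1:**
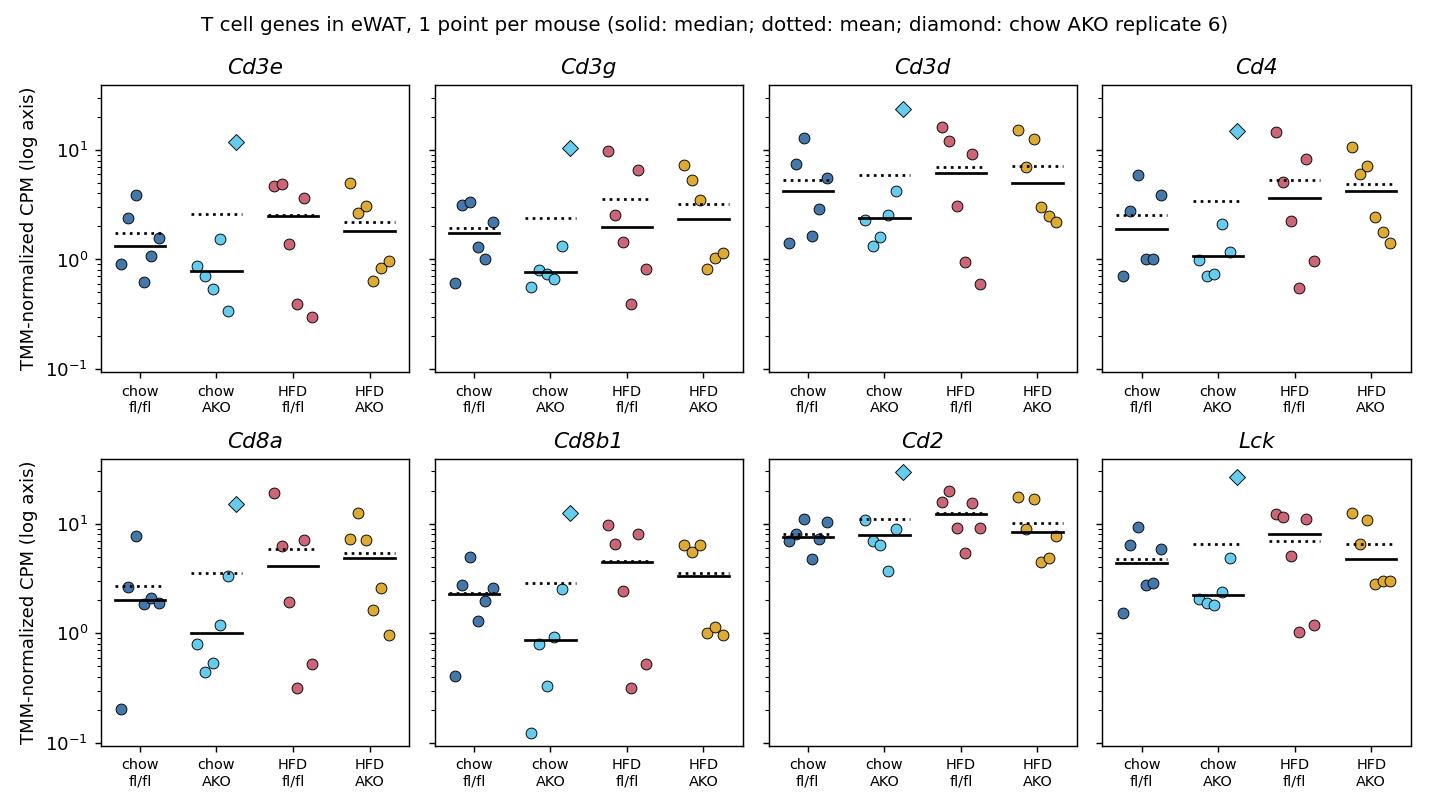
TMM-normalized CPM (y, log axis) of each T cell gene in each of 24 mice, by group (x), with replicates 1 to 6 from left to right, solid lines at the medians and dotted lines at the means. The diamond, chow-fed Lama4 AKO replicate 6, was the highest of the 24 libraries for 7 of the 8 genes, and the groups overlapped for every gene.

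The CD3 chains showed the pattern first. Cd3e, the epsilon chain, had a lowest, median and highest level of 0.622, 1.33 and 3.88 CPM in chow-fed Lama4 fl/fl mice and of 0.335, 0.789 and 11.7 CPM in chow-fed Lama4 AKO mice. On HFD it had 0.298, 2.51 and 4.855 CPM in Lama4 fl/fl mice and 0.633, 1.82 and 4.998 CPM in Lama4 AKO mice. The 4 groups overlapped, and the highest value of all came from chow-fed Lama4 AKO replicate 6.

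Cd3g, the gamma chain, had 0.6095, 1.745 and 3.37 CPM in chow-fed Lama4 fl/fl mice and 0.556, 0.767 and 10.4 CPM in chow-fed Lama4 AKO mice, again as lowest, median and highest. In HFD-fed mice these were 0.392, 1.99 and 9.76 CPM in Lama4 fl/fl mice and 0.8135, 2.335 and 7.21 CPM in Lama4 AKO mice. In the chow-fed Lama4 AKO group 5 mice lay at or below 1.34 CPM and replicate 6 lay far above them.

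Cd3d, the delta chain, had 1.42, 4.24 and 12.75 CPM in chow-fed Lama4 fl/fl mice and 1.34, 2.41 and 23.6 CPM in chow-fed Lama4 AKO mice. The HFD-fed mice had 0.595, 6.14 and 16.2 CPM in Lama4 fl/fl mice and 2.21, 5.002 and 15.2 CPM in Lama4 AKO mice. The lowest 2 of all 24 libraries were replicates 4 and 6 of Lama4 fl/fl mice on HFD, while replicate 1 of the same group was the second highest.

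Among the coreceptors, Cd4, which marks helper and regulatory T cells and is also carried by some macrophages and dendritic cells, had 0.711, 1.90 and 5.89 CPM in chow-fed Lama4 fl/fl mice and 0.713, 1.08 and 15.0 CPM in chow-fed Lama4 AKO mice. On HFD it had 0.549, 3.67 and 14.4 CPM in Lama4 fl/fl mice and 1.41, 4.23 and 10.6 CPM in Lama4 AKO mice. The medians of both HFD-fed groups were above those of both chow-fed groups, within ranges that overlapped.

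Cd8a, the CD8 alpha chain of cytotoxic T cells, which some dendritic cells also carry, had 0.203, 1.99 and 7.64 CPM in chow-fed Lama4 fl/fl mice and 0.4455, 0.9996 and 15.0 CPM in chow-fed Lama4 AKO mice. In HFD-fed mice the levels were 0.314, 4.065 and 19.15 CPM in Lama4 fl/fl mice and 0.972, 4.82 and 12.6 CPM in Lama4 AKO mice. Its highest level was in HFD-fed Lama4 fl/fl replicate 1, and it was the only one of the 8 genes not highest in chow-fed Lama4 AKO replicate 6.

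Cd8b1, the CD8 beta chain, had 0.406, 2.27 and 4.92 CPM in chow-fed Lama4 fl/fl mice and 0.124, 0.866 and 12.6 CPM in chow-fed Lama4 AKO mice. On HFD it had 0.314, 4.46 and 9.76 CPM in Lama4 fl/fl mice and 0.972, 3.33 and 6.41 CPM in Lama4 AKO mice. The lowest of these values rest on very few reads: the 8 genes had between 2 and 447 counts in a library, and 2 counts stood behind a value of Cd3e, of Cd8a and of Cd8b1.

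Cd2, the adhesion receptor, varied least. It had 4.81, 7.63 and 11.1 CPM in chow-fed Lama4 fl/fl mice and 3.72, 7.92 and 29.8 CPM in chow-fed Lama4 AKO mice. The HFD-fed mice had 5.41, 12.3 and 19.9 CPM in Lama4 fl/fl mice and 4.43, 8.40 and 17.53 CPM in Lama4 AKO mice. Within chow-fed Lama4 fl/fl mice its highest level was 2.30 times its lowest, against 37.6 times for Cd8a.

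Lck, the kinase at the start of the signal, had 1.52, 4.39 and 9.26 CPM in chow-fed Lama4 fl/fl mice and 1.797, 2.22 and 26.4 CPM in chow-fed Lama4 AKO mice. In HFD-fed mice these were 1.02, 7.98 and 12.1 CPM in Lama4 fl/fl mice and 2.80, 4.77 and 12.6 CPM in Lama4 AKO mice. As with the CD3 chains, the groups overlapped and the chow-fed Lama4 AKO group held its highest value in replicate 6.

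The comparison of HFD with chow in Lama4 fl/fl mice asks how these transcripts differed between the diets when adipocytes kept Lama4. Age at collection may differ with the diet here as well. By edgeR's quasi-likelihood test, 0 of the 8 genes were called, against 0.173% of all genes tested, where a gene is called if its fold reaches 1.5, its nominal p is 0.001 or less and its higher group averages 2 CPM or more. None of the 8 had an unadjusted p under 0.05 by edgeR, against 9.01% of genes, and none did by DESeq2 or limma-voom in this or any other comparison of all 24 mice. All 8 log2 fold changes were above 0, with a median of 0.73 against -0.01 over all genes tested, and all 8 medians were higher on HFD. The values ran from 0.38 for Cd3d (SE 0.78, adjusted p = 0.906) to 1.08 for Cd8a (SE 0.90, adjusted p = 0.732) by edgeR. Cd4 had 1.02 (SE 0.80) and Cd2 had 0.59 (SE 0.42). The 8 genes share the same 12 libraries and are not separate replicates, so the common sign is a single observation. Leaving out replicate 1 of Lama4 fl/fl mice on HFD gave values between -0.07 for Cd3d and 0.58 for Cd8b1.

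In Lama4 AKO mice, HFD against chow called 0 of 8, against 4.12% of all genes tested (619 genes, 194 higher and 425 lower on HFD), and 0 of 8 had an unadjusted p under 0.05, against 39.8%. The median log2 fold change of the 8 genes was 0.27, 5 of 8 were above 0, and the values ran from -0.28 for Cd3e (SE 0.78, adjusted p = 0.805) to 0.57 for Cd8a (SE 0.90, adjusted p = 0.653) by edgeR. Chow-fed Lama4 AKO replicate 6 decided these values. Its summed level was 144.5 CPM against 12.7 to 26.7 CPM in the other 5 mice of the group. Replicate 6 was singled out by its levels of these same 8 genes, so leaving it out raises the diet difference by construction. Here and below, p-values obtained without this library are descriptions and not tests. Without it, all 8 fold changes were above 0 and 6 had an unadjusted p under 0.05 by edgeR, against 41.3% of genes. Cd4 became 2.08 (SE 0.75, adjusted p = 0.0484), Cd3g 2.01 (SE 0.74, adjusted p = 0.0512) and Cd8a 2.21 (SE 0.92, adjusted p = 0.0772). Cd2 became 0.46 (SE 0.37). Still 0 of 8 were called, against 4.73% of genes.

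The comparison of Lama4 AKO with Lama4 fl/fl on HFD asks whether loss of Lama4 from adipocytes went with another T cell gene level in obesity. It called 0 of 8, against 0.173% of genes tested, and 0 of 8 had an unadjusted p under 0.05, against 14.8%. Of the 8 values 1 was above 0, the median was -0.14, and they ran from -0.33 for Cd8b1 (SE 0.85) to 0.05 for Cd3d (SE 0.78), each inside its standard error. The sign was not stable: by limma-voom 5 of 8 turned to above 0, up to 0.45 for Cd8a, and leaving out replicate 1 of Lama4 fl/fl mice on HFD gave values up to 0.76 for Cd8a. For Cd4 the 95% interval of the log2 fold change ran from -1.62 to 1.46, so a difference of well over 2-fold in either direction was within the error.

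Lama4 AKO against Lama4 fl/fl on chow called 0 of 8, against 0.113% of genes tested, and 0 of 8 had an unadjusted p under 0.05, against 5.85%. All 8 fold changes were above 0, with a median of 0.42, from 0.18 for Cd3d (SE 0.78) to 0.62 for Cd3e (SE 0.78, adjusted p = 0.964 by edgeR). The means and the medians pointed opposite ways: the mean was higher in Lama4 AKO for 8 of 8 genes, but the median was higher for 1 of 8, Cd2. Leaving out chow-fed Lama4 AKO replicate 6 lowers the Lama4 AKO level by construction. Without this library all 8 values were below 0, from -1.48 for Cd8b1 (SE 0.85, adjusted p = 0.813) to -0.15 for Cd2 (SE 0.37, adjusted p = 0.947) by edgeR. By limma-voom on all 24 libraries 7 of 8 were below 0.

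The interaction, which asks whether the diet effect differed between genotypes, called 0 of 8, against 0.386% of genes tested, and 0 of 8 had an unadjusted p under 0.05, against 15.6%. All 8 values were below 0, with a median of -0.55 and standard errors of 0.60 to 1.27. Without chow-fed Lama4 AKO replicate 6, 7 of 8 were above 0, up to 1.20 for Cd3d (SE 0.99), and by limma-voom on all 24 libraries 7 of 8 were above 0. The diet effect averaged over genotypes called 0 of 8, against 2.25% of genes tested, and gave 0 of 8 an unadjusted p under 0.05, against 35.5%. It had 8 of 8 above 0, a median of 0.47 and values from 0.12 for Cd3e (SE 0.55) to 0.83 for Cd8a (SE 0.64, adjusted p = 0.35 by edgeR). Leaving out chow-fed Lama4 AKO replicate 6, chosen for its T cell gene levels, raises this diet effect by construction. Without that library 7 of 8 had an unadjusted p under 0.05, against 37.9% of genes, led by Cd4 at 1.56 (SE 0.50, adjusted p = 0.0428 by edgeR) and Cd3g at 1.45 (SE 0.49, adjusted p = 0.0485 by edgeR), and 0 of 8 were called, against 2.31%.

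**Figure D2:**
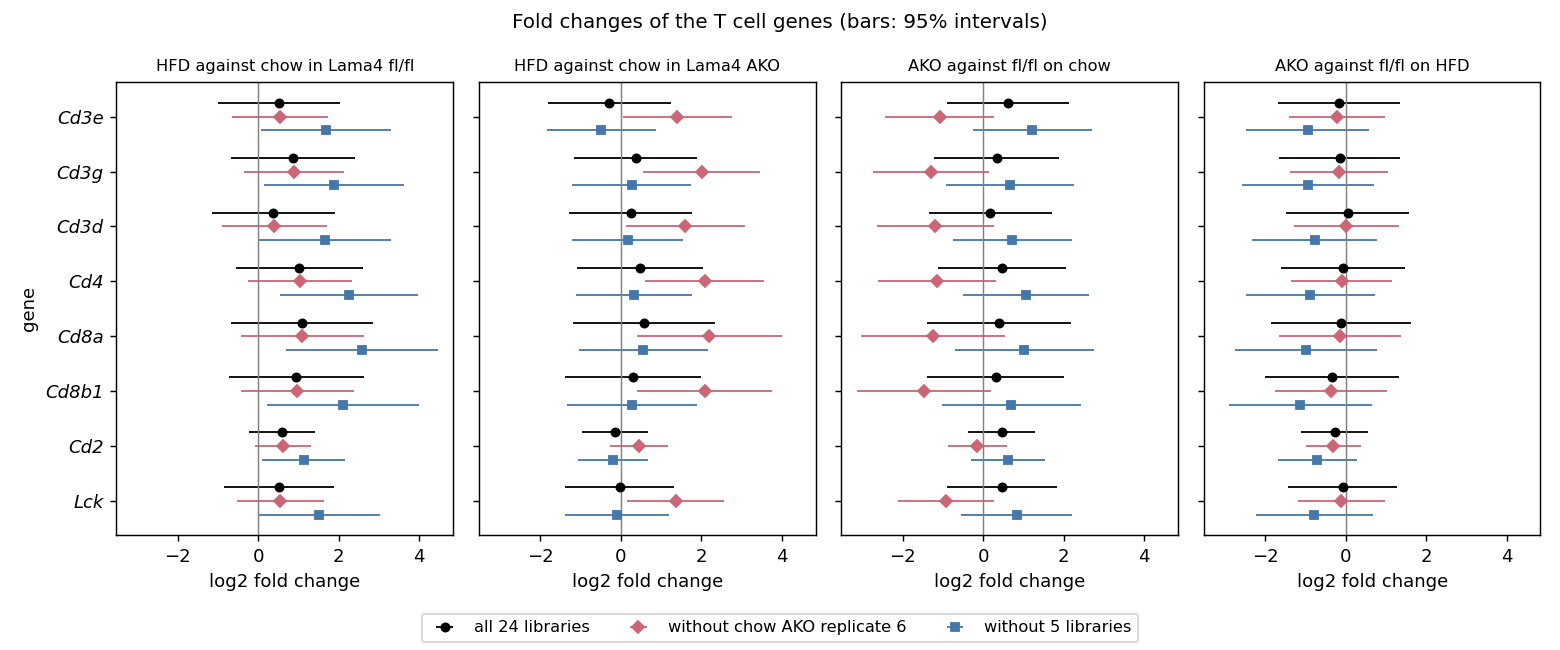
Log2 fold change (x) of each T cell gene (y) in 4 comparisons, with bars for 95% intervals, for all 24 libraries (black), without chow-fed Lama4 AKO replicate 6 (red) and without 5 libraries (blue). With all libraries every bar crossed 0, and leaving out replicate 6 moved the chow genotype values from above to below 0 for all 8 genes.

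The study set some mice aside as outliers by principal components. The plot that shows them was not used here, and an earlier examination of these counts inferred that they were HFD-fed Lama4 fl/fl replicates 3, 4 and 6, chow-fed Lama4 fl/fl replicate 3 and chow-fed Lama4 AKO replicate 5. The 3 HFD-fed libraries of that list are the 3 with the lowest T cell gene levels of their group, and the chow-fed Lama4 fl/fl one has the highest of its group, so leaving them out raises the diet difference by construction. Without the 5 libraries, HFD against chow in Lama4 fl/fl gave 1.13 for Cd2 (SE 0.52) to 2.57 for Cd8a (SE 0.96, adjusted p = 0.0517 by edgeR), with 5 of 8 at an unadjusted p under 0.05, against 41.4% of genes, and 0 of 8 called, against 11.8% of genes tested. For Lama4 AKO against Lama4 fl/fl on HFD all 8 values were then below 0, from -1.13 to -0.71 with a median of -0.91, with 0 of 8 at an unadjusted p under 0.05, against 11.1% of genes, and 0 of 8 called, against 0.565%. The interaction ran from -2.16 for Cd3e (SE 1.08) to -1.32 for Cd2 (SE 0.69), with 0 of 8 called against 0.68% of genes. Averaged over genotypes, Cd8a reached 1.57 (SE 0.63, adjusted p = 0.0453 by edgeR), with 0 of 8 called against 21.4% of genes.

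The spread within groups was the leading feature of these genes. The within-group standard deviation on the log2 CPM scale was 1.82 for Cd8a, 1.76 for Cd8b1, 1.51 for Cd3d, 1.48 for Cd4, 1.45 for Cd3e, 1.42 for Cd3g, 1.301 for Lck and 0.77 for Cd2, against a median of 0.43 over all genes tested. Counting error alone would give 0.14 for Cd2 and at most 0.44, for Cd3e. Between 80.3% of all genes tested, for Cd2, and 98.7%, for Cd8a, had a lower spread.

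The HFD-fed groups were each split in the same way for every gene. Summed over the 8 genes, HFD-fed Lama4 fl/fl replicates 1, 2 and 5 had 102, 68.7 and 69.3 CPM, and replicates 3, 4 and 6 had 26.7, 9.34 and 14.0 CPM. HFD-fed Lama4 AKO replicates 1, 2 and 3 had 81.85, 54.8 and 67.3 CPM, and replicates 4, 5 and 6 had 16.7, 17.8 and 18.5 CPM. In each of these groups the 3 higher mice lay above the 3 lower mice for 8 of 8 genes. These splits were read off the levels of the same 8 genes, which rose and fell together, so this is a description. The share of all genes that split in the same way was not counted. Chow-fed Lama4 fl/fl mice ran from 12.8 to 58.8 CPM, with replicate 3 highest.

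With group means removed, the correlation between 2 of the 8 genes over the 24 libraries ran from 0.68, for Cd8a with Cd2, to 0.98, for Cd3d with Lck, over all 28 pairs. Cd8a and Cd8b1, whose proteins pair in the CD8 receptor, had 0.93, and Cd4 and Cd8a, which mark different mature T cells, had 0.90. Without chow-fed Lama4 AKO replicate 6 the lowest of the 28 was 0.58. These are descriptions over libraries that share their depth and their mix of tissue RNA. The count ratio of Cd8a to Cd4 ran from 0.286, from 2 and 7 counts in chow-fed Lama4 fl/fl replicate 1, to 2.86 in chow-fed Lama4 AKO replicate 5, and was 1 in chow-fed Lama4 AKO replicate 6, where each gene had 225 counts.

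**Figure D3:**
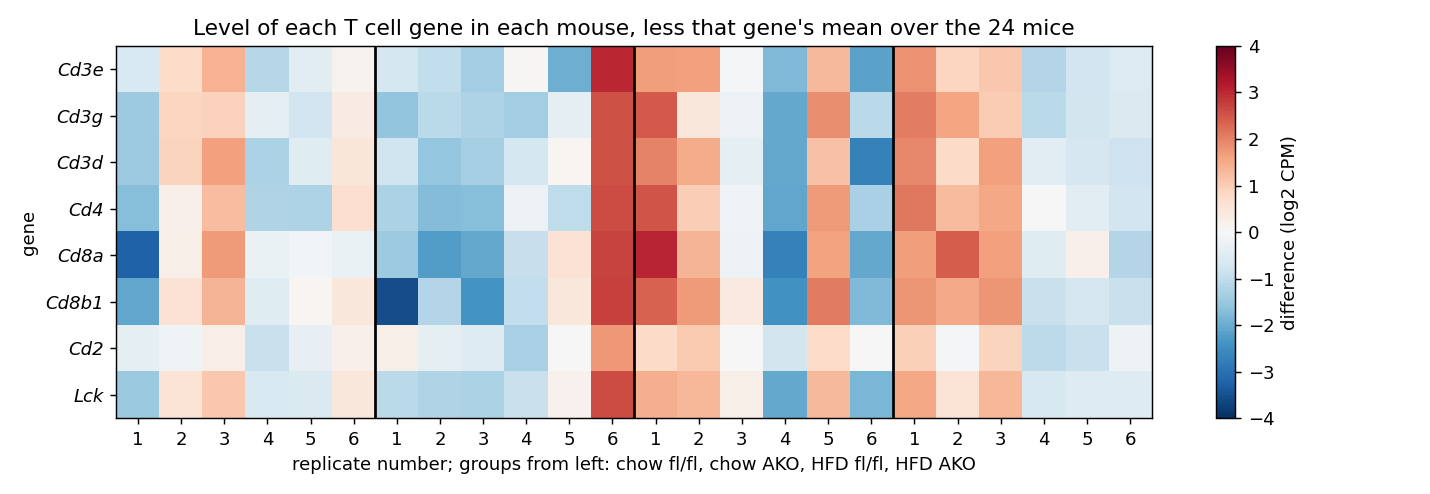
Level of each T cell gene (rows) in each of the 24 mice (columns, by group and replicate number), as log2 CPM less that gene's mean over all mice. Columns are mostly of a single colour: chow-fed Lama4 AKO replicate 6 was high for all 8 genes, and HFD-fed Lama4 fl/fl replicate 4 was low for all 8.

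The 10 other genes whose levels were most like the mean of the 8 T cell genes within groups were Trbc2 (r = 0.98 over 24 libraries), Ikzf3 (0.97), Gimap3 (0.96), Ms4a4b (0.96), Nkg7 (0.96), Ptprcap (0.96), Trbc1 (0.95), Ly6c2 (0.95), Ccl5 (0.95) and Il2rb (0.95). Trbc1 and Trbc2 encode the constant part of the T cell receptor beta chain and are near-identical, so how reads were split between them is uncertain. Nkg7 belongs to cytotoxic granules, Ccl5 is a chemokine of activated T and natural killer cells, Il2rb is a chain of the interleukin 2 receptor, and Ikzf3 is a lymphocyte transcription factor. Of all 15012 other genes tested, 6.33% had a correlation of at least 0.7.

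The remaining genes of the T cell receptor pathway were followed with lists. Of 7 receptor constant-chain genes, 7 were tested and 6 had a correlation of at least 0.7 with the 8 T cell genes. The list had 0 of 7 called in each of the 6 comparisons, with a median log2 fold change of 0.68 for HFD against chow in Lama4 fl/fl. Trac, the alpha constant chain, had 1.33 there (SE 0.58, adjusted p = 0.516 by edgeR) and 0.78 when replicate 1 of HFD-fed Lama4 fl/fl was left out. It was called without the 5 libraries at 2.45 (SE 0.62, adjusted p = 0.00692 by edgeR), where 11.8% of genes tested were called. Trdc, the delta constant chain, had 0.77 for the diet averaged over genotypes (SE 0.33, adjusted p = 0.104 by edgeR). It was called without the 5 libraries at 1.14 (SE 0.28, adjusted p = 0.00256 by edgeR), where 21.4% of genes tested were called.

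Of 17 proximal signalling genes, such as Zap70 and Lat, 15 were tested, 12 had a correlation of at least 0.7, and 0 of 15 were called by edgeR on all 24 libraries in any of the 6 comparisons. Skap1, an adaptor of this list, had 0.76 for the averaged diet effect (SE 0.52, adjusted p = 0.293 by edgeR). It was called without chow-fed Lama4 AKO replicate 6, at 1.66 (SE 0.42, adjusted p = 0.0268 by edgeR), where 2.31% of genes were called. Cd247, the zeta chain that completes the CD3 complex, had a correlation of 0.40, below the 0.7 that the 12 genes reached. It had 5.485, 6.17 and 7.185 CPM as lowest, median and highest in chow-fed Lama4 fl/fl mice and 6.77, 9.58 and 22.4 CPM in chow-fed Lama4 AKO mice. On HFD it had 3.88, 6.07 and 10.5 CPM in Lama4 fl/fl mice and 1.665, 5.48 and 8.52 CPM in Lama4 AKO mice. For HFD against chow in Lama4 AKO it had a log2 fold change of -1.13 (SE 0.34, adjusted p = 0.0277 by edgeR), which missed the nominal p of a call, was called by DESeq2 at -1.15 (adjusted p = 0.00807), and was -0.84 (SE 0.33, adjusted p = 0.0614) without chow-fed Lama4 AKO replicate 6. Grap2, an adaptor of the same pathway, had 0.79 for the averaged diet effect (SE 0.44, adjusted p = 0.198 by edgeR).

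Among 11 costimulatory and inhibitory receptors, 8 were tested, 6 had a correlation of at least 0.7 and 0 were called in any of the 6 comparisons. Lag3, an inhibitory receptor, had 1.93 for HFD against chow in Lama4 fl/fl (SE 0.68, adjusted p = 0.448 by edgeR), from group means of 0.889 and 0.239 CPM. Havcr2, which encodes TIM-3 and is also carried by macrophages, had 1.19 in Lama4 AKO (SE 0.56, adjusted p = 0.117 by edgeR). Of 11 cytotoxic genes 9 were tested, 6 had a correlation of at least 0.7 and 0 were called in any comparison. Gzmb, a granzyme, had 1.001 for the averaged diet effect (SE 0.47, adjusted p = 0.131 by edgeR), and Klrd1, a receptor of natural killer and CD8 T cells, had -0.76 (SE 0.28, adjusted p = 0.0668 by edgeR). Of 10 genes of T cell differentiation and homing 10 were tested, 6 had a correlation of at least 0.7 and 0 were called in any comparison, with Bcl11b at 1.18 for Lama4 AKO against Lama4 fl/fl on chow (SE 0.59, adjusted p = 0.866 by edgeR).

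Among the T cell lists, the list of regulatory T cell genes alone held a gene called by edgeR on all 24 libraries. Il1rl1, which encodes the interleukin 33 receptor ST2 of fat-resident regulatory T cells, and also of mast cells and type 2 innate lymphoid cells, rose on HFD in Lama4 AKO mice. It had 9.71, 14.4 and 22.8 CPM as lowest, median and highest in chow-fed Lama4 AKO mice and 25.4, 45.9 and 52.1 CPM in HFD-fed Lama4 AKO mice, so the groups did not overlap. The log2 fold change was 1.52 (SE 0.27, adjusted p = 0.0121 by edgeR), where 1.29% of genes tested were called higher. In Lama4 fl/fl mice it had 10.4, 14.2 and 20.8 CPM on chow and 11.1, 28.6 and 39.4 CPM on HFD, ranges that overlapped, with a log2 fold change of 0.78 (SE 0.26, adjusted p = 0.448 by edgeR). Averaged over genotypes it was called at 1.15 (SE 0.19, adjusted p = 0.0113 by edgeR), where 0.772% of genes were called higher. Chow-fed Lama4 AKO replicate 6, highest for the T cell genes, had 15.05 CPM of Il1rl1, inside the range of its group. Foxp3, the transcription factor of regulatory T cells, did not pass the test: its medians were 0.344 and 1.41 CPM in Lama4 fl/fl mice on chow and HFD and 0.611 and 0.428 CPM in Lama4 AKO mice, and its lowest p was for genotype on chow, 1.97 (SE 0.90, adjusted p = 0.842 by edgeR). That value rests on chow-fed Lama4 AKO replicate 6, which had 5.66 CPM against at most 1.17 CPM in the other 5 mice of its group, and was 0.65 (SE 0.85, adjusted p = 0.896 by edgeR) without it. Of 7 genes in this list 6 were tested, 1 had a correlation of at least 0.7, and Il1rl1 was the 1 called, for HFD against chow in Lama4 AKO and averaged over genotypes. The correlation of Il1rl1 itself was 0.51. The list as a whole did not rise in Lama4 AKO, where 2 of 6 genes were above 0 on HFD, with a median of -0.41. Averaged over genotypes, 4 of 6 were above 0, with a median of 0.39.

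Markers of other cells moved with the T cell genes from mouse to mouse. With group means removed, the summed level of each list had a correlation with the mean of the 8 T cell genes of 0.87 for 8 B cell genes, 0.82 for 5 natural killer cell genes, 0.71 for 6 macrophage genes, 0.68 for 6 dendritic cell genes, 0.67 for 3 lymph node stroma genes, -0.77 for 6 adipocyte genes, -0.53 for 5 blood genes and 0.16 for the library total. The first principal component of all genes tested, the main axis of difference between libraries, had 0.81, its sign being arbitrary. The B cell sum ran from 5.485 to 42.95 CPM in chow-fed Lama4 fl/fl, 8.39 to 68.4 CPM in chow-fed Lama4 AKO, 5.96 to 119.5 CPM in HFD-fed Lama4 fl/fl and 14.3 to 120.3 CPM in HFD-fed Lama4 AKO mice. Within HFD-fed Lama4 AKO, replicates 1, 2 and 3, high for T cell genes, had B cell sums of 120.3, 48.5 and 93.1 CPM, and replicates 4, 5 and 6 had 23.6, 14.3 and 18.83 CPM. The stroma sums were 37.6, 15.6 and 39.2 CPM in the first 3 and 3.98, 7.29 and 3.005 CPM in the others. Macrophage sums of this group overlapped between these mice, with 8164, 7851 and 7472 CPM against 11260, 9472 and 5779 CPM. So did its adipocyte sums, with 11020, 9471 and 10160 CPM against 8225, 8026 and 22980 CPM. Lama4 fl/fl mice on HFD showed another pattern. Replicates 1, 2 and 5, high for T cell genes, had B cell sums of 119.5, 41.4 and 63.1 CPM, and replicates 3, 4 and 6 had 47.7, 5.96 and 10.2 CPM, so the B cell sums overlapped. Their stroma sums overlapped too, with 51.3, 9.58 and 28.5 CPM against 8.28, 2.35 and 14.1 CPM. Their macrophage sums did not overlap, with 9400, 11020 and 6192 CPM against 5094, 1905 and 2568 CPM. Nor did their adipocyte sums, which were lower in the mice high for T cell genes, with 8459, 10560 and 13890 CPM against 22600, 43090 and 36720 CPM. In chow-fed Lama4 AKO replicate 6 the B cell sum was 58.5 CPM, below the 68.4 CPM of replicate 5 of its group, whose T cell sum was 26.7 CPM.

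**Figure D4:**
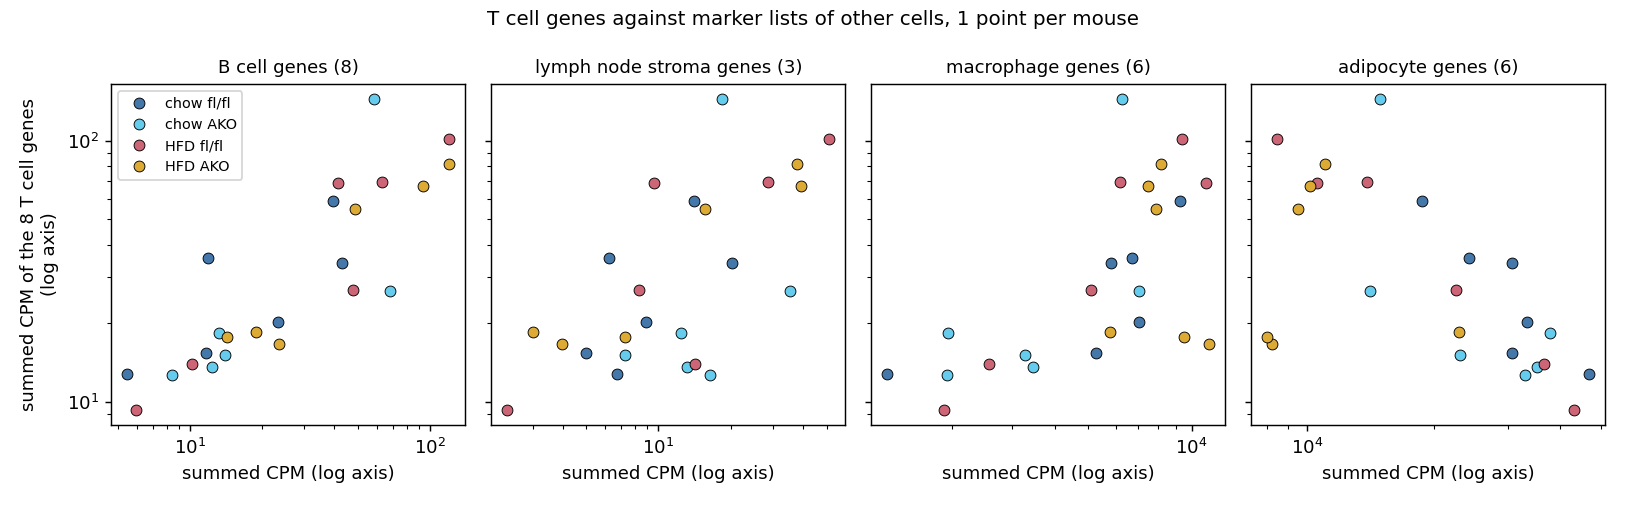
Summed CPM of the 8 T cell genes (y, log axis) against the summed CPM of B cell, lymph node stroma, macrophage and adipocyte genes (x, log axes), with 1 point per mouse coloured by group. The T cell sum tended to rise with the B cell sum, with exceptions. Chow-fed Lama4 AKO replicate 5 had a B cell sum of 68.4 CPM and a T cell sum of 26.7 CPM. HFD-fed Lama4 fl/fl replicate 3 had 47.7 and 26.7 CPM. The highest point, chow-fed Lama4 AKO replicate 6 at 144.5 CPM, stands above the others at its B cell level.

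Of the stroma markers Cr2, Glycam1 and Cxcl13 were in the table, and Ccl21a, Ccl19, Fdcsp and Madcam1 were not rows of it. Glycam1, made by the high endothelial venules of lymph nodes, was at 0 counts in 4 of 6 chow-fed Lama4 fl/fl libraries and reached 59 and 65 counts in HFD-fed Lama4 fl/fl replicate 1 and HFD-fed Lama4 AKO replicate 3, both high for T cell genes. Other libraries high for T cell genes varied. HFD-fed Lama4 AKO replicate 1 had 36 counts, but replicate 2 of that group had 2 and chow-fed Lama4 AKO replicate 6 had 1. Chow-fed Lama4 AKO replicate 5, with a T cell sum of 26.7 CPM, had 12. The averaged diet effect of Glycam1 was 3.09 on the log2 scale (SE 0.95, adjusted p = 0.0399 by edgeR), not called, and depends on counts near 0. B cell genes leaned the same way as T cell genes, with 8 of 8 above 0 for the averaged diet effect, a median of 1.19 and 0 called; the lowest p were those of Blk at 1.31 (SE 0.45, adjusted p = 0.0539 by edgeR) and Fcmr at 1.585 (SE 0.60, adjusted p = 0.0712 by edgeR). Without the 5 libraries both were called, at 1.89 for Blk (adjusted p = 0.00169 by edgeR) and 2.52 for Fcmr (adjusted p = 0.00223 by edgeR), where 21.4% of genes tested were called. Of the marker list of epididymis and testis, Lcn5 alone was in the table, at up to 13.2 CPM in chow-fed Lama4 fl/fl replicate 4, which was low for T cell genes with a sum of 15.3 CPM. The part of these cell markers in the T cell gene levels was not tested.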

How the data were processed

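RNA of eWAT from 24 mice was sequenced with Lexogen QuantSeq and 50-base forward reads. Alignment to GRCm38 and counting were done by the authors with Lexogen's own QuantSeq pipeline, version 1.8.8, and the raw counts per gene were deposited, while another passage of the study's methods names Rsubread for the counts. A second table that the authors deposited holds a normalized signal: the counts of each library divided by 1 size factor, in all 24 libraries within a tolerance of 1e-06. It gave only symbols and positions, and 2663 of its genes have no symbol. The submitters' processing notes name R 4.0.3 and DESeq2 1.30.

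Genes reaching 1 CPM in 3 or more libraries were kept from the deposited counts and tested with edgeR 4.0.16 (R 4.3.3), using TMM factors and a quasi-likelihood fit with 1 coefficient per group over all 24 libraries. CPM were scaled by library totals and TMM factors, log2 CPM used a prior count of 0.5, the SE of a fold change was taken from the F statistic, and p-values were adjusted by Benjamini-Hochberg over 15020 genes. A gene was called if its fold reached 1.5, its nominal p was 0.001 or less and its higher group averaged 2 CPM or more, after the study's methods, which used limma-voom. The alternatives were DESeq2 1.42.0, limma 3.58.1 with voom, RLE factors, no filter, no CPM criterion, adjusted p of at most 0.05, 5 libraries left out, the replicate number as a block, and each library left out in turn.

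The T cell genes and the lists were chosen with earlier results of these data known. From each list the genes called and the 2 with the lowest p were named, with the 10 genes most like the T cell genes, Lama4 and Ptprc. A gene that this rule names is not reported here. Other genes named were chosen after their values were seen. The labels give the diet, the genotype and a replicate number. On the mice behind each library they say only that 6 mice were used per group. The 60 pairs of libraries within groups differed beyond counting error: chi-square per degree of freedom was never under 5.73. The scripts were tested on simulated counts whose spread between libraries was capped. That test does not show whether changes in genes as variable as the T cell genes could be found. Protein sequences were not used here.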

Additional observations from a re-analysis of the deposited data

Results flagged for a closer look

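In the chow-fed Lama4 AKO group, replicate 6 stood apart from its 5 group mates for Cd4, at 15.0 CPM against at most 2.13 CPM (Dixon ratio 0.655), and for Cd3g, at 10.4 CPM against at most 1.34 CPM (Dixon ratio 0.702). These were 2 of 32 sets of 6 mice examined (8 genes in 4 groups, on the log2 CPM scale), and chance alone gives such a gap in about 1 of 20 sets. The 8 genes are not independent sets, since they rose and fell together. The cause was not tested.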

How the results depend on the processing

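No T cell gene was called under any alternative, and the count stayed at 0 of 8 in all 6 comparisons. DESeq2, RLE factors and no filter kept the direction of all 48 fold changes. Limma-voom, which averages log values, turned 22 of 48. In Lama4 AKO against Lama4 fl/fl on chow, limma-voom gave -0.28 for Cd3d, -0.15 for Cd3e, -0.47 for Cd3g, -0.15 for Cd4, -0.45 for Cd8a, -1.04 for Cd8b1 and -0.22 for Lck. In Lama4 AKO against Lama4 fl/fl on HFD, limma-voom gave 0.050 for Cd3e, 0.092 for Cd3g, 0.27 for Cd4, 0.45 for Cd8a and 0.17 for Lck. In the interaction, limma-voom gave 0.69 for Cd3d, 0.20 for Cd3e, 0.56 for Cd3g, 0.42 for Cd4, 0.91 for Cd8a, 1.03 for Cd8b1 and 0.39 for Lck. In HFD against chow in Lama4 AKO, limma-voom gave 0.015 for Cd2, 0.42 for Cd3e and 0.63 for Lck. The replicate number as a block turned 5 of 48: in Lama4 AKO against Lama4 fl/fl on chow, -0.15 for Cd3g and -0.049 for Cd8b1, in Lama4 AKO against Lama4 fl/fl on HFD, 0.038 for Cd8a, in the interaction, 0.043 for Cd3g, in HFD against chow in Lama4 AKO, 0.26 for Lck. The labels name no pairing of mice by replicate number. Of 36 same-numbered pairs of libraries 15 had a correlation of deviations over 0.1, from -0.52 to 0.69. Pairs of other numbers were not set beside them, so pairing was not tested. Without the 5 libraries 1 of 48 turned, in Lama4 AKO against Lama4 fl/fl on HFD, -0.77 for Cd3d, and 6 of the 10 genes most like the T cell genes were kept. Leaving out each library in turn changed a direction in 67 of 1152 fits of a gene, and the ranges for the genes concerned follow. In Lama4 AKO against Lama4 fl/fl on chow, values ran from -0.15 to 0.64 for Cd2, -1.19 to 0.65 for Cd3d, -1.08 to 1.02 for Cd3e, -1.30 to 0.56 for Cd3g, -1.14 to 0.90 for Cd4, -1.24 to 1.01 for Cd8a, -1.48 to 0.67 for Cd8b1 and -0.93 to 0.76 for Lck. In Lama4 AKO against Lama4 fl/fl on HFD, values ran from -0.36 to 0.50 for Cd3d, -0.63 to 0.10 for Cd3e, -0.60 to 0.46 for Cd3g, -0.48 to 0.55 for Cd4, -0.59 to 0.76 for Cd8a, -0.61 to 0.038 for Cd8b1 and -0.41 to 0.16 for Lck. In the interaction, values ran from -0.60 to 1.20 for Cd3d, -1.24 to 0.87 for Cd3e, -0.92 to 1.13 for Cd3g, -0.98 to 1.04 for Cd4, -1.13 to 1.11 for Cd8a, -1.002 to 1.11 for Cd8b1 and -0.87 to 0.82 for Lck. In HFD against chow in Lama4 AKO, values ran from -0.38 to 0.46 for Cd2, -0.13 to 1.60 for Cd3d, -0.70 to 1.41 for Cd3e, -0.039 to 2.01 for Cd3g and -0.33 to 1.36 for Lck. In HFD against chow in Lama4 fl/fl, values ran from -0.071 to 0.84 for Cd3d. In the averaged diet effect, values ran from -0.080 to 0.97 for Cd3e. The lowest of the chow genotype values and the highest of the interaction came without chow-fed Lama4 AKO replicate 6. For the genotype on HFD, the highest came when replicate 1 of HFD-fed Lama4 fl/fl was left out. Il1rl1 kept its call in Lama4 AKO and in the averaged diet effect under every alternative run. In Lama4 fl/fl it was called without the 5 libraries (0.9961), where 11.8% of genes were called, and when replicate 4 of HFD-fed Lama4 fl/fl was left out (0.93). Cd247 was called in Lama4 AKO by DESeq2 (-1.15). With levels of a few CPM and this spread, differences of about the SE given could not be detected.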

Other observations

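Among the adipocyte and macrophage genes, 1 was called by edgeR on all 24 libraries. Lep (leptin), an adipocyte hormone, fell by 2.10 on the log2 scale on HFD in Lama4 AKO mice (SE 0.51, adjusted p = 0.017 by edgeR) in a comparison where 4.12% of all genes were called. It kept its direction but was not called when replicate 3 of chow-fed Lama4 AKO mice (-1.82) or replicate 1, 2, 4 or 5 of HFD-fed Lama4 AKO mice (-2.06 to -2.003) was left out. The whole adipocyte list was lower on HFD in Lama4 AKO, with a median of -1.22. All 6 genes had an unadjusted p under 0.05 by edgeR, against 39.8% of genes. For genotype on HFD 0 of 6 were above 0, with a median of -1.02. There 4 of 6 had an unadjusted p under 0.05 by edgeR, against 14.8% of genes. Cfd (adipsin), another adipocyte product, had -1.65 for the diet averaged over genotypes (SE 0.45, adjusted p = 0.0306 by edgeR), and was not called. It was called by DESeq2 (-1.65), without the 5 libraries (-2.40, where 21.4% of genes were called), and when replicate 2 or 4 of chow-fed Lama4 fl/fl, 4 or 5 of chow-fed Lama4 AKO, 4 or 6 of HFD-fed Lama4 fl/fl or 6 of HFD-fed Lama4 AKO mice was left out (-1.84 to -1.735). All 6 macrophage genes had values above 0 for HFD against chow in Lama4 AKO, with a median of 1.06 and 0 called, led by Cd68 at 1.46 (SE 0.53, adjusted p = 0.049 by edgeR) and Itgam at 1.17 (SE 0.44, adjusted p = 0.0554 by edgeR). Of 6 dendritic cell genes 0 were called with all 24 libraries, with Itgax, which fat macrophages also carry, at 1.59 in the same comparison (SE 0.54, adjusted p = 0.0389 by edgeR) and Flt3 at -0.83 (SE 0.41, adjusted p = 0.133 by edgeR). Without the 5 libraries Cd68 and Itgax were called in that comparison. Cd68, Itgam and Itgax were then called for the averaged diet effect, where 21.4% of genes were called.

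Natural killer cell genes were mostly below 0 for the averaged diet effect. Of 5 tested, 0 were called, 1 of 5 was above 0 for the averaged diet effect, and Klra8 had -1.47 for HFD against chow in Lama4 fl/fl (SE 0.61, adjusted p = 0.506 by edgeR), while Klra4 had -1.21 in Lama4 AKO (SE 0.52, adjusted p = 0.0906 by edgeR). Cr2, of B cells and follicular stroma, had 1.09 for the averaged diet effect (SE 0.51, adjusted p = 0.128 by edgeR). It was called without the 5 libraries, where 21.4% of genes were called. Of 5 blood genes 0 were called, and the lowest p were those of Hbb-bt at -0.47 (SE 0.36, adjusted p = 0.511 by edgeR) and Alas2 at -0.34 (SE 0.39, adjusted p = 0.668 by edgeR) for genotype on HFD. Per CD45 transcript, the summed T cell genes had group medians of 0.127 in chow-fed Lama4 fl/fl, 0.108 in chow-fed Lama4 AKO, 0.179 in HFD-fed Lama4 fl/fl and 0.143 in HFD-fed Lama4 AKO mice, and the highest ratios were 0.372 in HFD-fed Lama4 AKO replicate 1 and 0.354 in chow-fed Lama4 AKO replicate 6.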
